A study of Mus musculus with 2 samples.

Results

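The epidermal growth factor (EGF) receptor family was followed through 10 genes in the small intestinal epithelium of 1 mouse. The genes were taken by name from the gene list of the deposited matrix, and all 10 were found among its 55401 genes. They are the receptors Egfr, Erbb2 and Erbb3, the ligands Nrg1, Areg, Ereg, Egf, Tgfa and Hbegf, and the receptor inhibitor Lrig1. The choice had in view that Egfr RNA is higher at the villus tip and Nrg1 RNA in enteroendocrine cells, so those 2 patterns are described here and support nothing further. The animal was a TrnA mutant, which carries its change in mitochondrial DNA (mtDNA), 55 weeks old, at a mutation load of 73%. Its strain, sex and colitis status are not stated in the labels. Intestinal epithelial cells were released with EDTA, digested, stained for CD45, CD31, TER-119 and CD326 and sorted, with gates that are not stated, and then fixed with formaldehyde. RNA and open chromatin (ATAC) were read from the same cells in 2 libraries, and all 12363 barcodes carry both readouts. Because every cell came from the same animal, each comparison below sets cell groups of that animal side by side, no p-value was computed, and none of them measures an effect of the mutation.

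EGF receptors sit mainly on the basolateral face of gut epithelial cells and pair with each other after a ligand binds, which switches on the RAS-MAPK and PI3K-AKT pathways. In the intestinal crypt this signal drives the division of stem and progenitor cells, and Lrig1, itself a marker of crypt stem cells, restrains it by promoting receptor loss. Egf, Tgfa, Areg, Ereg and Hbegf bind Egfr, and Ereg and Hbegf can also bind the fourth family receptor, Erbb4. Nrg1 binds Erbb3 and Erbb4. Erbb2 has no known ligand of its own and acts as a partner, and Erbb3 has a weak kinase and relies on a partner.

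Of 12363 barcodes, 9872 cells were kept, with medians of 5591 UMIs (unique molecular identifiers, each 1 captured RNA molecule), 1547 nuclear-encoded UMIs and 12884.5 counts in peaks per cell. Clusters were made without the 10 members, 73 other pathway genes and the mtDNA genes, and were named from marker lists, so the clusters could not be drawn by the genes described. The classes were 3382 enterocyte-like cells, 1804 progenitor-like cells of the crypt (542 stem-like and 1262 cycling-like), 1465 goblet-like, 284 Paneth-like, 212 enteroendocrine-like, 98 tuft-like and 29 lymphocyte-like cells, while 2598 cells (26.3%) stayed unnamed and belong to no class. RNA depth differed by class: the median was 874.5 nuclear-encoded UMIs in enterocyte-like cells and 2832 in progenitor-like cells, and mtDNA-encoded RNA took a median of 79.5% and 54.9% of their UMIs. Levels are therefore given as UMIs per 1000000 nuclear-encoded UMIs, summed over the cells of a class. Intervals in brackets are exact 95% intervals that cover counting error only. Fibroblast markers, 9 genes that would mark stroma, summed to between 0 and 0.979 per 1000000 over the 6 epithelial classes. Paneth marker RNA was also counted outside Paneth-like cells: the 12 Paneth markers summed to 6742 per 1000000 in enterocyte-like cells against 202304 in Paneth-like cells. Whether this was free RNA, doublets or the cells' own RNA was not tested.

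The promoter sequences of 3 members are shown because their RNA took different places in the epithelium while, as described further on, their promoter peaks differed far less than their RNA. Each window covers 250 bases before to 50 bases after the gene start, 5′ to 3′ on the gene's own strand, from RefSeq on the GRCm38.p6 (mm10) build, and capitals mark every match to 1 of 5 short motifs. Egfr lies at chr11:16751953-16752252 on the plus strand, Lrig1 at chr6:94700096-94700395 on the minus strand and Areg at chr5:91139349-91139648 on the plus strand.
Egfr: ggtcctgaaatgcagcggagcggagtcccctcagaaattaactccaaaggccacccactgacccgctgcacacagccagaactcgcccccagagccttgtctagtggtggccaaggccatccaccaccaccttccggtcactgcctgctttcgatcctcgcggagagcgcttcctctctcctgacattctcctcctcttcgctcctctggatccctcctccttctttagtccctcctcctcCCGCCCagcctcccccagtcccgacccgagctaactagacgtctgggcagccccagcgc
Lrig1: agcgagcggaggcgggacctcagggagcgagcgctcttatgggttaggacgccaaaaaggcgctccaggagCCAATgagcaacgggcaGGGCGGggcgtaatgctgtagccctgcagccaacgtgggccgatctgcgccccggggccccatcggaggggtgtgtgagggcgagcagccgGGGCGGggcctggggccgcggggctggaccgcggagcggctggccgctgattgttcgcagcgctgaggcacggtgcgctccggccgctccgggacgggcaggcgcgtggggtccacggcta
Areg: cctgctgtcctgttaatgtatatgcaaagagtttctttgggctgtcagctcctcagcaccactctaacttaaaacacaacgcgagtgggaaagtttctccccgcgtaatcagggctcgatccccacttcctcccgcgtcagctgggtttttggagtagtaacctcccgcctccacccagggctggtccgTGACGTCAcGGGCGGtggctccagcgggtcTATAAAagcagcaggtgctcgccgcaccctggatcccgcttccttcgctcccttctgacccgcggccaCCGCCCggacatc

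Motifs were searched on both strands: the GC box GGGCGG, the TATA box TATAAA, the cyclic AMP response element TGACGTCA, the AP-1 site TGANTCA and CCAAT. The Egfr window held 1 GC box, at -9 from the start, and none of the other 4 motifs. The Lrig1 window held GC boxes at -162 and -71 and a CCAAT match at -179. Areg held GC boxes at -52 and 38, a TATA box at -31 and the cyclic AMP response element at -61. Among all 32851 promoter windows of 300 bases, 35.7% held the GC box, 13.6% the TATA box, 1.79% the cyclic AMP response element, 7.81% the AP-1 site and 37.4% CCAAT, so Areg carried the least common match. Windows were also at hand for Erbb2 (1 CCAAT match, at -41), Tgfa (GC boxes at -126 and -15) and Egf (2 windows with no match). GC content was 62.3% for Egfr, 73% for Lrig1 and 59.3% for Areg, against a median of 52.7% over all windows. A match is a description of letters, and no match says only that those letters are not in the window.

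Egfr (ENSMUSG00000020122.16, chr11:16752203-16913907), the receptor of most of the ligands, was counted in all 6 epithelial classes. Its level was 500.3 [480.4, 520.8] in goblet-like cells, 271 [230, 318] in enteroendocrine-like, 256 [241, 271] in enterocyte-like, 246 [234, 258] in progenitor-like, 129 [108, 153] in Paneth-like and 96.8 [63.8, 141] in tuft-like cells. Goblet-like cells stood above all other classes by counting error. Enteroendocrine-like, enterocyte-like and progenitor-like cells were not separated from their neighbours in this order, and neither were Paneth-like and tuft-like cells. The log2 ratio of progenitor-like to enterocyte-like cells, -0.06, moved beyond its counting interval in 8 of 10 alternatives. It was -0.47 with clusters from ATAC peaks and 1.19 at Leiden resolution 2. The tuft-like level rests on 27 UMIs: its log2 ratio to enterocyte-like cells, -1.40, ran from -3.31 without the highest doublet scores to -0.12 over the alternatives, and none of the 95 tuft-like cells thinned to 500 nuclear-encoded UMIs kept an Egfr UMI. Stem-like cells (240.0) and cycling-like cells (248) differed by a log2 ratio of -0.05 [-0.21, 0.12]. The log2 ratio of goblet-like to enterocyte-like cells was 0.97 [0.86, 1.07], just inside 2-fold, and it passed 2-fold in 7 of 10 alternatives, with values from 0.64 to 2.40. It was 2.21 without the enterocyte-like cells of cluster 7, described below. Cells among the highest doublet scores made up 18.9% of goblet-like and 3.37% of enterocyte-like cells, and the ratio without them was 1.07.

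Erbb2 (ENSMUSG00000062312.5, chr11:98412484-98437716), the partner receptor, was highest in enterocyte-like cells at 124 [114, 135], although on a scale of all UMIs, mtDNA-encoded ones included, its log2 ratios in progenitor-like and goblet-like cells turned from -0.92 and -0.84 to 0.15 and 0.29. Goblet-like cells had 69.6 and progenitor-like cells 65.8, a pair whose difference of 0.08 [-0.13, 0.29] on the log2 scale lay within counting error. Enteroendocrine-like (39.5), Paneth-like (28.4) and tuft-like cells (21.5) were lowest and were not separated from each other as neighbours. Erbb3 (ENSMUSG00000018166.8, chr10:128567523-128589635), the neuregulin receptor, was likewise highest in enterocyte-like cells, at 430 [411, 449]. The other 5 classes lay between 102 in Paneth-like and 188 in goblet-like cells. Each of the 5 was past 2-fold below enterocyte-like cells, with log2 ratios from -2.08 in Paneth-like to -1.19 in goblet-like cells. On the scale of all UMIs none of the 5 Erbb3 ratios was past 2-fold, with values from -0.89 in tuft-like to -0.05 in enteroendocrine-like cells. That change of scale moved the median gene of each class comparison too, for example from 0.19 to 1.44 on the log2 scale for enteroendocrine-like cells and from 0.47 to 1.54 for progenitor-like cells.

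Areg (ENSMUSG00000029378.5, chr5:91139599-91148432), amphiregulin, a ligand linked to tissue repair, was about equal in goblet-like (34.4 [29.3, 40.1]) and enterocyte-like cells (33.1 [28.0, 38.8]). Progenitor-like cells held 8.01 [5.94, 10.6], a log2 ratio of -2.05 [-2.54, -1.58] to enterocyte-like cells. On the scale of all UMIs that ratio was -0.98, within 2-fold, and the goblet-like ratio was 1.18, past 2-fold higher. Within the crypt, stem-like cells had 15.5 and cycling-like cells 5.11, a log2 ratio of 1.60 [0.74, 2.47]. Areg was thus the only member past 2-fold between stem-like and cycling-like cells among those with at least 20 UMIs, a comparison in which 4.63% of genes were past 2-fold higher and 4.22% lower. Ereg (ENSMUSG00000029377.5, chr5:91074617-91093649), epiregulin, which lies next to Areg, was counted at 51 UMIs in enterocyte-like cells (11.3 per 1000000), 11 in progenitor-like (6 stem-like and 5 cycling-like) and 12 in goblet-like cells, too few to compare within those classes. No Ereg UMI was seen in Paneth-like or tuft-like cells. In the 98 tuft-like cells the depth was too low to show a difference, because the limit that 3 counts set lies only 0.07 below the enterocyte-like level on the log2 scale.

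Egf itself (ENSMUSG00000028017.7, chr3:129677574-129755322), the founding ligand, was rare, with 96 UMIs over all kept cells and 4 in enterocyte-like cells. Paneth-like cells had 14 UMIs, or 13.7 [7.49, 23.0] per 1000000, and goblet-like cells 42 UMIs, or 8.81 [6.35, 11.9]. Progenitor-like cells had 22 UMIs. Its calls as higher in goblet-like and progenitor-like cells rest on those 4 enterocyte-like UMIs, and the progenitor-like log2 ratio of 2.00 [0.44, 3.99] turned to -0.85 when each cell was thinned to 500 nuclear-encoded UMIs. Tgfa (ENSMUSG00000029999.14, chr6:86195038-86275744), transforming growth factor alpha, ran from 25.1 in tuft-like to 52.0 in goblet-like cells and stayed within 2-fold of enterocyte-like cells in all 5 other classes, although on the scale of all UMIs it was past 2-fold higher in progenitor-like (1.05), goblet-like (1.63) and Paneth-like cells (1.14). Hbegf (ENSMUSG00000024486.6), heparin-binding EGF, a membrane-held ligand of wound edges, had 151 [140, 163] in enterocyte-like and 95.2 [71.3, 125] in enteroendocrine-like cells, an order that turned on the scale of all UMIs (log2 ratio -0.66 to 0.59). Its remaining levels ran from 20.6 in Paneth-like to 56.2 in progenitor-like cells.

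Lrig1 (ENSMUSG00000030029.14, chr6:94604529-94700298), the inhibitor, was lowest in the enterocyte-like cells, where Erbb3 was highest. Progenitor-like cells had 353 [338, 368], Paneth-like 232 [203, 263], tuft-like 151 [109, 204], goblet-like 137 [127, 148], enteroendocrine-like 135 [106, 169] and enterocyte-like cells 28.2 [23.6, 33.6]. Progenitor-like, then Paneth-like cells stood apart from the class next in order, the 3 classes after them did not differ from their neighbours, and enterocyte-like cells stood apart at the bottom. The log2 ratio of progenitor-like to enterocyte-like cells was 3.64 [3.39, 3.91]. Stem-like cells had 547 and cycling-like cells 278, a log2 ratio of 0.98 [0.86, 1.10]. After thinning to 500 nuclear-encoded UMIs per cell, 15% of progenitor-like and 0.833% of enterocyte-like cells held an Lrig1 UMI, against 60.1% and 3.34% before thinning.

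**Figure D1:**
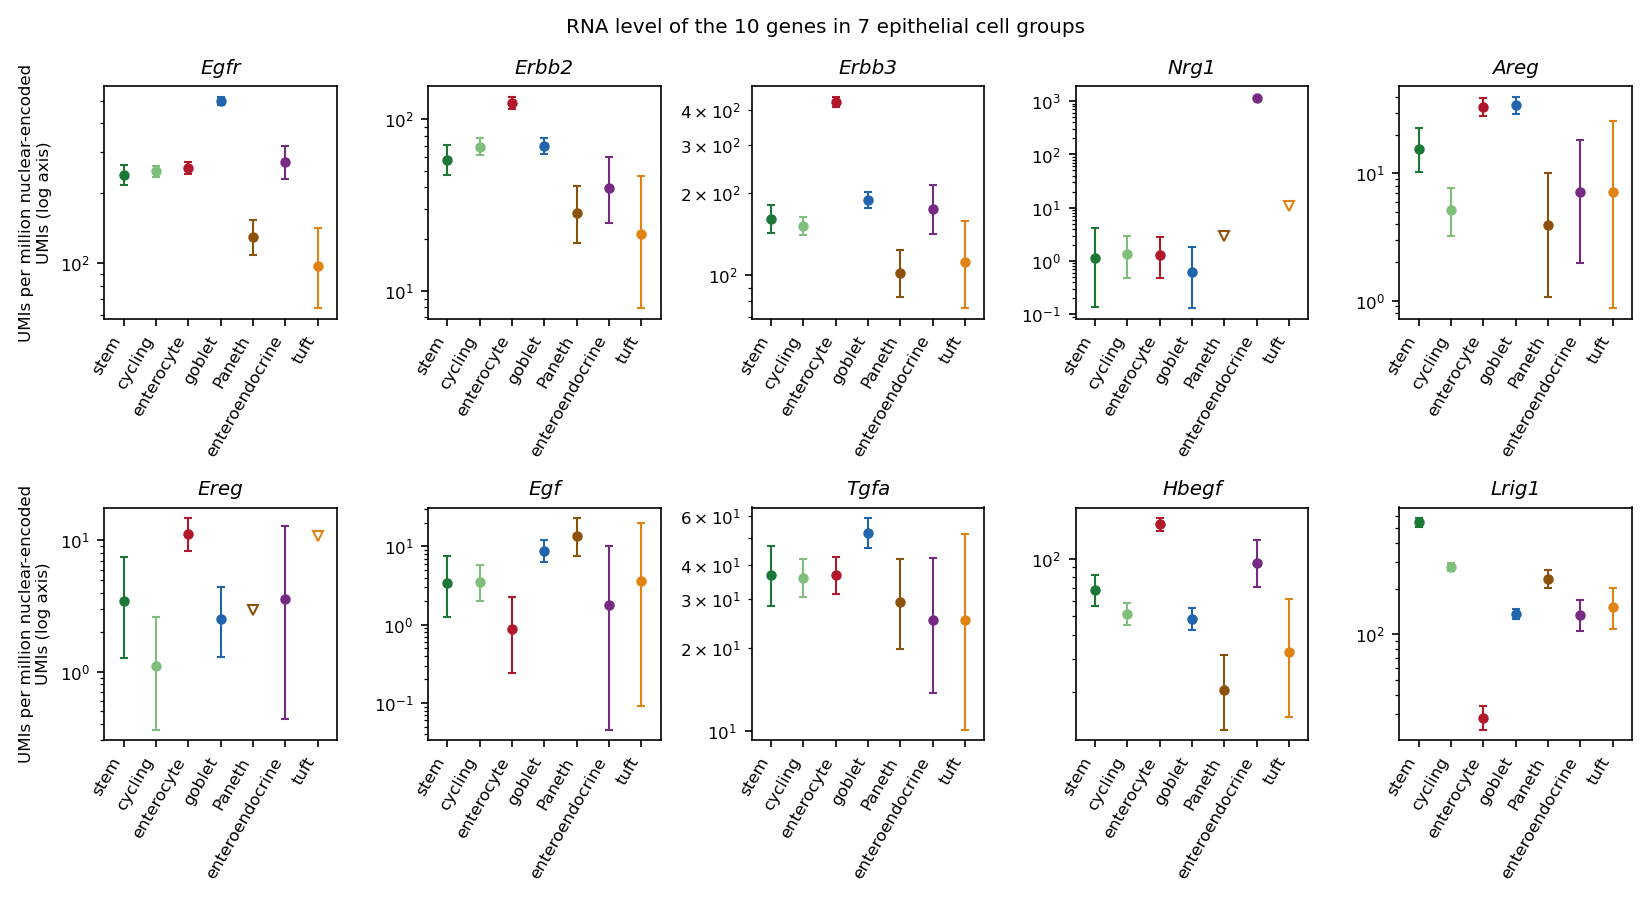
RNA level of each of the 10 members (UMIs per 1000000 nuclear-encoded UMIs, log axis) in 7 epithelial groups of 1 mouse, with progenitor-like cells shown as stem-like and cycling-like. Bars are exact 95% Poisson intervals for counting error, and open triangles mark the limit of 3 counts where no UMI was seen. Erbb3 sits highest in enterocyte-like cells at 430, Lrig1 in stem-like cells at 547, and Nrg1 in enteroendocrine-like cells at 1126.

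Over the 9 members with at least 20 UMIs in both classes together, 2 were past 2-fold higher (Lrig1 and Egf) and 4 lower (Erbb3, Areg, Ereg and Hbegf) in progenitor-like than in enterocyte-like cells, where 34.5% of all genes tested were higher and 15.2% lower. In goblet-like cells 2 of 9 were higher and 3 lower, against 20.9% and 11.4% of all genes. In Paneth-like cells 1 of 8 was higher and 5 were lower, against 18.3% and 23%. In enteroendocrine-like cells 2 of 9 were higher and 4 lower, against 25.3% and 18.3%. In tuft-like cells 1 of 8 was higher and 6 were lower, against 23.2% and 20.5%, and 1 of those 6 is Ereg with no UMI in tuft-like cells. On the scale of all UMIs most genes were past 2-fold above enterocyte-like cells, and the members' split shifted too. There 4 members were higher and 1 lower in progenitor-like cells (66.5% and 6.71% of all genes), and 5 and 1 in goblet-like cells (65% and 3.11%). The counts were 2 and 3 in Paneth-like (61.9% and 6.95%), 3 and 0 in enteroendocrine-like (64.6% and 6.2%) and 1 and 4 in tuft-like cells (57% and 10.3%). Lrig1 was the member higher in all 5 comparisons, which share the enterocyte-like cells as their reference, but its tuft-like log2 ratio of 2.41 was 0.84, within 2-fold, when classes were taken from ATAC clusters. The median log2 ratio of the measured members ran from -2.01 in Paneth-like to 0.05 in goblet-like cells, while that of all genes tested ran from -0.13 in Paneth-like to 0.47 in progenitor-like cells.

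Nrg1 (ENSMUSG00000062991.9, chr8:31807452-32891609), neuregulin 1, was the member with the narrowest distribution. Enteroendocrine-like cells held 627 of its 645 UMIs (97.2%), a level of 1126 [1040, 1218]. The counts elsewhere were 6 UMIs in enterocyte-like, 8 in progenitor-like and 3 in goblet-like cells, and 0 in Paneth-like and tuft-like cells. The log2 ratio of enteroendocrine-like to enterocyte-like cells was 9.73 [8.60, 11.18], and it lay between 8.73 and 10.98 over the 10 alternatives tried. Not every hormone cell carried it: 28 of 212 enteroendocrine-like cells (13.2% [8.96, 18.5]) had a Nrg1 UMI, against 0.177% of enterocyte-like cells, at median depths of 2307.5 and 874.5 nuclear-encoded UMIs.

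Within the enteroendocrine-like class, Nrg1 was concentrated in the cells with serotonin markers. Sub-cluster 2 held 38 cells, had a median log2 ratio of 3.16 for the 6 enterochromaffin markers against the other enteroendocrine-like cells, and carried 499 Nrg1 UMIs, or 77.4% of all. Its level was 6156 [5628, 6721], 20 of its 38 cells had a Nrg1 UMI, and 1 cell held 102 of them. Sub-cluster 0, of 53 cells led by the peptide hormone genes Nts, Gcg and Cck, had 87 UMIs (807) in 4 cells. Tac1, an enterochromaffin marker, was also among its leading genes. Its median log2 ratio was -0.004 for the 6 enterochromaffin markers and 2.06 for the peptide markers. Sub-cluster 1, of 41 cells with cell division genes among its leading genes and a median of 4889 nuclear-encoded UMIs, had 35 UMIs (168) in 3 cells. Sub-clusters 3 and 4, of 37 and 31 cells, had no Nrg1 UMI, which allows levels of up to 32.2 and 73.6 at a limit of 3 counts, and sub-cluster 5, of 12 cells, had 6 UMIs in 1 cell. Malat1 stood at 35431 per 1000000 in sub-cluster 2 and between 11537 and 26284 in the others, and its part in the Nrg1 level was not tested. Fibroblasts and enteric glia are known sources of Nrg1 in the gut: 0 of 9 fibroblast markers had a UMI in enteroendocrine-like cells, and 3 of 6 glia and neuron markers did (13 UMIs in all), with Sox10, S100b and Gfap at 0.

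The receptors were spread more widely over these cells than Nrg1. Egfr stood at 417 in sub-cluster 0, 220.5 in sub-cluster 1, 506 in sub-cluster 2 and 204 in sub-cluster 3, and had no UMI in sub-clusters 4 and 5. Erbb3 stood at 185 [104, 305] in sub-cluster 2, and its intervals overlapped those of the other sub-clusters. Hbegf was highest by its level in sub-cluster 2 at 358 [240, 514], from 29 UMIs in 10 cells. Sub-cluster 5 followed at 237 [86.9, 515], from 6 UMIs in 2 cells, and the 2 intervals overlap. Its level was 27.8 in sub-cluster 0 and 67.1 in sub-cluster 1. Egfr was also highest in sub-cluster 2 by its level. Across the 16 RNA clusters the genes most like Nrg1, of 9672 with at least 200 UMIs, were Lmx1a (r = 0.994), Scn3a (0.989), Asic5 (0.988), Cacna2d1 (0.985) and Jazf1 (0.984). These Pearson correlations of log2(level + 5) rest mainly on 1 cluster and are given as a description.

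**Figure D2:**
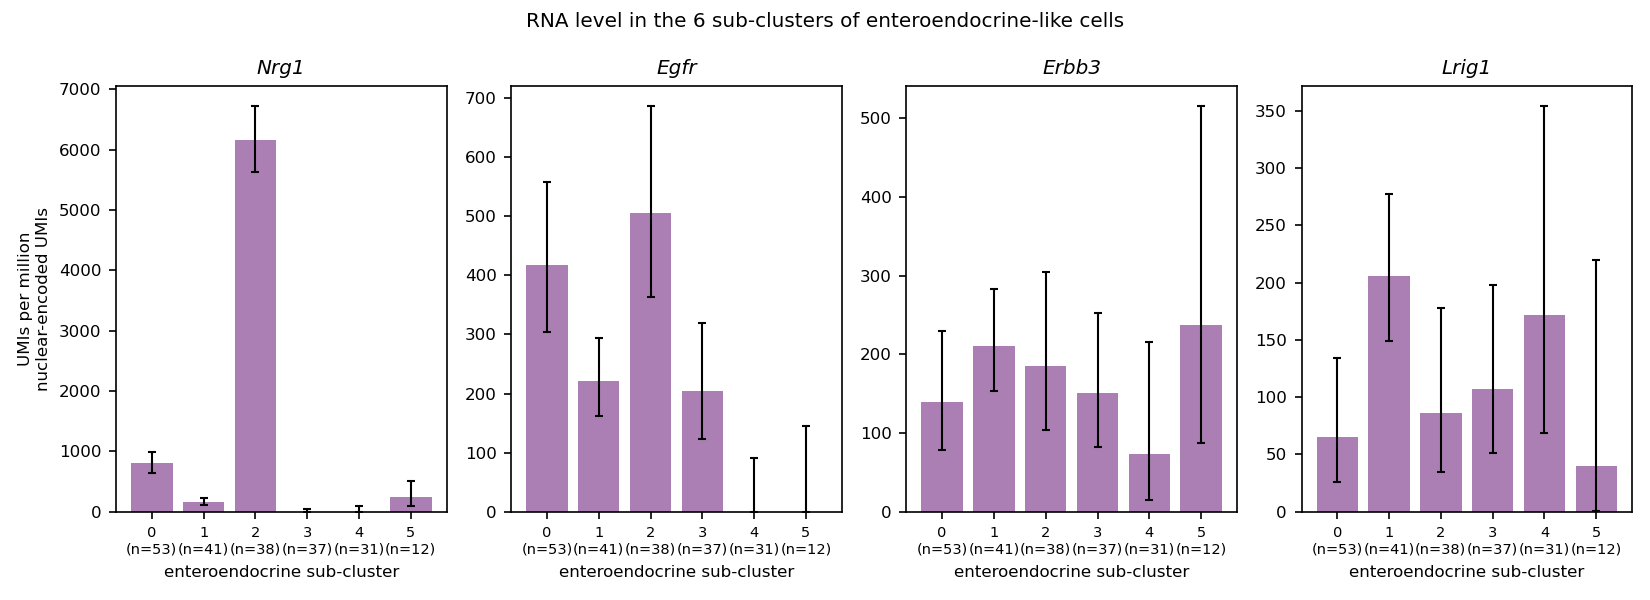
RNA level (UMIs per 1000000 nuclear-encoded UMIs) of Nrg1, Egfr, Erbb3 and Lrig1 in the 6 enteroendocrine-like sub-clusters, with exact 95% Poisson intervals that cover counting error only. Nrg1 reaches 6156 in sub-cluster 2, the 38 cells with the highest enterochromaffin markers, and has no UMI in sub-clusters 3 and 4.

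Enterocyte-like cells were ordered from villus base to tip by 10 tip and 10 base landmark genes, none of them a member, and divided into 5 zones of 676 or 677 cells. Egfr was counted at 68.5 [56.5, 82.2], 91.8 [70.3, 118], 80.4 [60.4, 105], 137 [112, 166] and 1086 [1013, 1163] from zone 1, at the base, to zone 5, at the tip. The levels of zones 1 to 3 overlap, and the tip zone stands apart with 826 of the 1160 UMIs. The log2 ratio of tip to base was 3.99 [3.70, 4.28]. After thinning to 500 nuclear-encoded UMIs per cell, 30.8% of tip cells and 3.13% of base cells held an Egfr UMI, against 42.3% and 13.3% before. Among proximal cells the level was flat below the tip, at 64.6, 64.6, 57.8 and 66.7, and stood at 582 in zone 5. Among distal cells it climbed before the tip, through 71.3, 170.3, 152 and 314 to 1640.0. These zones were cut within each segment, so the same zone number covers different scores in the 2 segments. Zone 4 reached a score of 0.194 in proximal and 0.588 in distal cells, and cluster 7 made up 1.86% and 24.1% of it.

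Cluster 7 held 728 of the 1160 Egfr UMIs of enterocyte-like cells. Its 551 cells made up 76% of the tip zone and 5.47% of zone 4, and its Egfr level was 1373 against 108 in all other enterocyte-like cells, a log2 ratio of 3.67 [3.49, 3.84]. In that comparison 5.57% of genes were past 2-fold higher and 26.3% lower. Its leading genes include the tip genes Slc28a2, Nt5e and Ada, but its median log2 ratio for the 18 enterocyte markers was only 0.33, just above the limit of 0.3 that named a class. With a limit of 0.4 the cluster stays unnamed, and the log2 ratio of Egfr between the end zones of the remaining cells was 1.73. Library quality moved along the same axis: the nuclear-retained RNAs Malat1 and Neat1 went from 12751 to 24979 and from 874 to 3485 per 1000000 from zone 1 to zone 5, and the median of counts in peaks went from 14115 to 7470.5 per cell. Their part in the Egfr step was not tested. In cluster 7, 247 of 551 cells (44.8%) had an Egfr UMI, and the most in 1 cell was 46.

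Hbegf was the other member past 2-fold higher at the tip. It went from 54.7 [44.0, 67.1] in zone 1 through 96.2, 122 and 165 to 422 [377, 471] in zone 5, with a log2 ratio of 2.95 [2.61, 3.30]. With zones cut within each segment, the levels in proximal cells were 60.4, 95.7, 111, 102 and 309, with zones 2 to 4 overlapping. In distal cells they were 46.2, 111, 148, 341 and 489.6, each zone above the one before, with zones 2 and 3 overlapping. Lrig1 ran the other way, from 50.4 [40.2, 62.5] in zone 1 to 22.2, 14.9, 10.5 and 14.5, with a log2 ratio of -1.80 [-2.86, -0.89]. The intervals of zones 2 to 5 overlap. In the zones cut within each segment, proximal cells had 57.2, 21.5, 9.64, 13.3 and 9.67, and distal cells 39.2, 37.0, 14.1, 17.2 and 12.01. There were 10 UMIs or fewer in every zone after the first. Median depth went from 1905 in zone 1 to 769.5 nuclear-encoded UMIs per cell in zone 2, and its part was not tested. Ereg had 25 UMIs in zone 1 and 3 in zone 5, a log2 ratio of -1.93 [-4.30, -0.22], and the base UMIs were mostly from distal cells (21 UMIs in the distal base zone against 4 in the proximal one).

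The remaining members stayed within 2-fold between tip and base. Erbb3 had 306 [280, 334] in zone 1, then 462, 466, 522 and 548 [497, 604], a log2 ratio of 0.84 [0.65, 1.03]. On the scale of all UMIs that ratio was 0.11. Erbb2 lay between 107 in zone 1 and 152 in zone 2. Areg went from 41.4 to 21.0, with a log2 ratio of -0.98 [-1.86, -0.18] that was -1.70, past 2-fold lower, on the scale of all UMIs. In the base zone its level was 63.6 in proximal and 14.0 in distal cells. Tgfa was 39.6 at the base and 38.1 at the tip. Nrg1 and Egf had at most 2 UMIs in any zone. Of 8 members with at least 20 UMIs in the end zones, 2 were past 2-fold higher and 2 lower, where 8.15% of all genes tested were higher and 23.9% lower and the median gene stood at -0.34. On the scale of all UMIs 2 were higher and 3 lower (3.16% and 53.1% of all genes). In cells thinned to 500 nuclear-encoded UMIs only 4 members reached 20 UMIs, and Egfr and Hbegf were again past 2-fold higher.

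**Figure D3:**
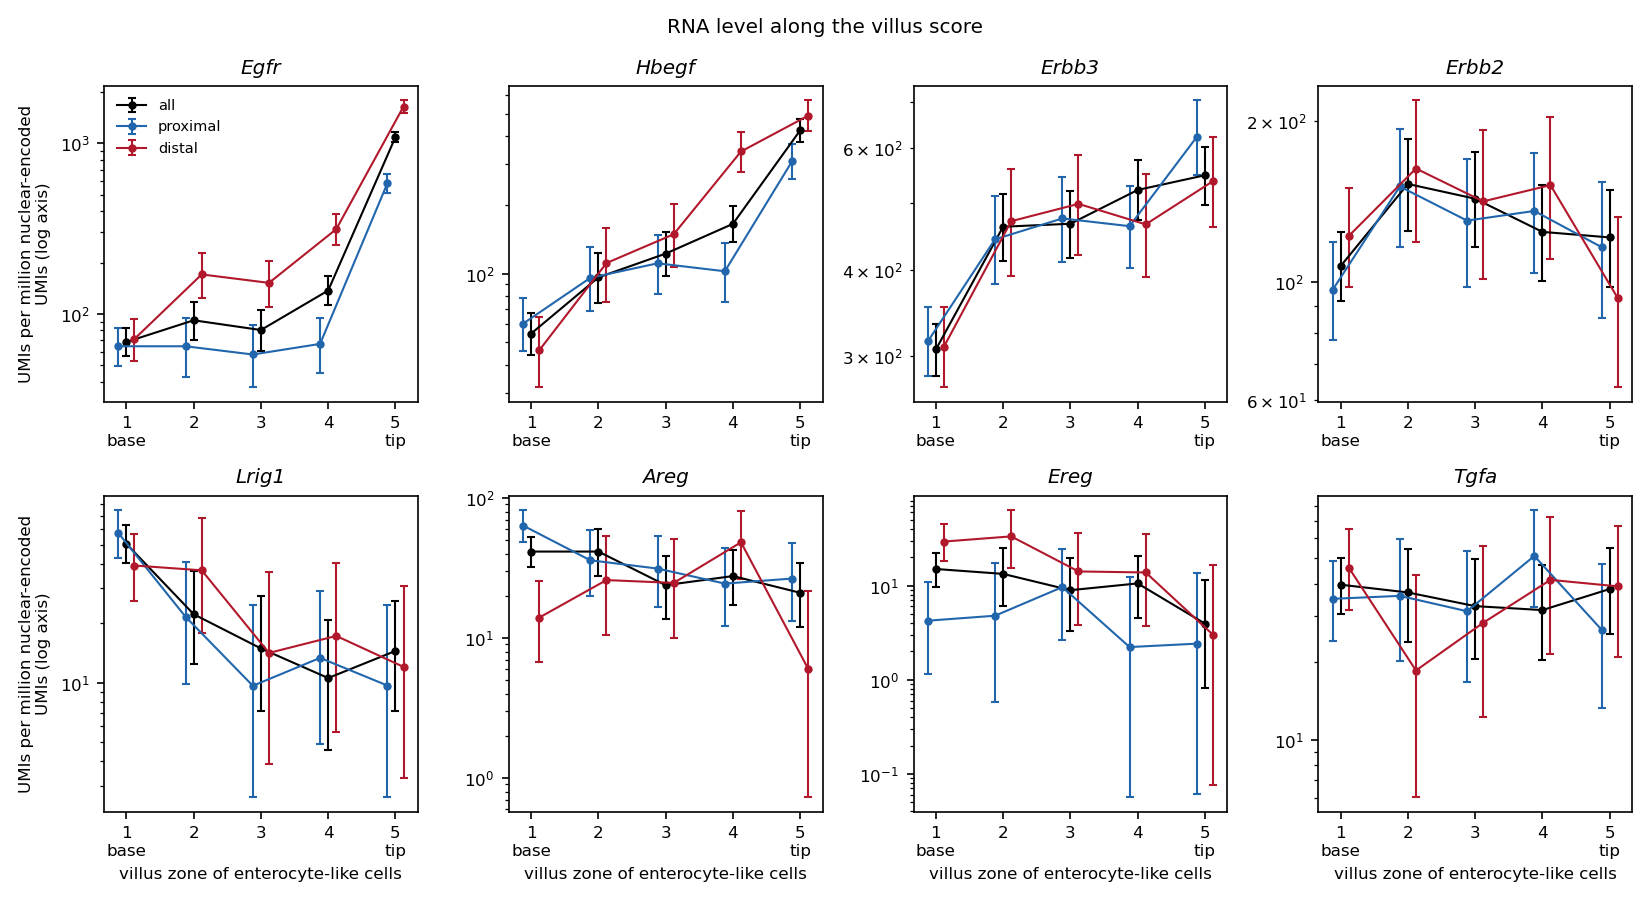
RNA level (UMIs per 1000000 nuclear-encoded UMIs, log axes) of 8 members in 5 zones of enterocyte-like cells from villus base (1) to tip (5), for all (black), proximal (blue) and distal cells (red), with exact 95% Poisson intervals for counting error. Zones were cut separately in each set of cells. In all cells Egfr lies between 68.5 and 137 in zones 1 to 4 and at 1086 in zone 5, Hbegf goes from 54.7 to 422, and Lrig1 from 50.4 to 14.5.

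Across the 5 zones the genes most like Egfr, of 9671 with at least 200 UMIs, were Rap1gap2 (r = 0.999), Msh6 (0.998), Malat1 (0.997), Slc44a1 (0.997) and the tight junction gene Cldn4 (0.996). With 5 points that share libraries, these values describe the shape of the curve. The presence of Malat1 among them is the same measurement as the rise of that RNA at the tip given above. Over the 16 clusters Erbb3 was most like Epha2 (r = 0.950), Lipe (0.934), Cgn (0.927), Pcyt1a (0.926) and Smad7 (0.926). Lrig1 was most like Atm (0.979), Map2k6 (0.978), 6030458C11Rik (0.977), Esrrg (0.976) and A630089N07Rik (0.976).

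The 2 goblet-like clusters split the family. Cluster 5, of 827 cells with the secreted goblet gene Clca1 among its leading genes, had an Egfr level of 794, and cluster 6, of 638 cells led by Pdia5, Kcnma1 and Slc12a8, had 183, a log2 ratio of 2.12 [1.96, 2.27]. Lrig1 was at 63.3 in cluster 5 and 217 in cluster 6, a ratio of -1.78 [-2.04, -1.51]. Egf had 2 UMIs in cluster 5 and 40 in cluster 6, so that cluster 6 alone held 41.7% of all Egf UMIs. Those were the 3 members past 2-fold among those with at least 20 UMIs (Ereg had 9 and 3), where 5.95% of genes were higher in cluster 5 and 16.7% lower. Erbb2, Erbb3, Areg, Tgfa and Hbegf were higher in cluster 5 by log2 ratios of 0.52 to 0.83, within 2-fold. Malat1 stood at 12495 per 1000000 in cluster 5 and 9992 in cluster 6, and its part in the Egfr difference was not tested. None of the 9 measured promoters was past 2-fold between these clusters, where 1.88% of all promoters were higher and 6.92% lower, and the Egfr promoter stood at 26.2 and 20.8 fragments per 1000000 fragments in peaks.

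The promoter peaks of the members changed little between classes. They are the peaks that overlap the start interval listed for each gene, extended by 1000 bp. For Egf that interval runs from 129725077 to 129755316 and takes in 5 peaks, 2 of them at its ends, so its value also covers peaks inside the gene. Levels are in fragments per 1000000 fragments in peaks. Of 50 pairs of ratios in which both readouts had at least 20 counts, the RNA was past 2-fold in 31 and the promoter in 1, and in 30 pairs the RNA was past 2-fold while the promoter was within it. Ereg in Paneth-like and tuft-like cells is among the 50 but not among the 31. It had no UMI there and so no RNA ratio, although it is counted as lower above. Lrig1 is the clearest case: its promoter stood at 54.1 in progenitor-like and 57.8 in enterocyte-like cells, a log2 ratio of -0.09 [-0.20, 0.01], against 3.64 for its RNA. The Erbb3 promoter stood at 54.6 in enterocyte-like and 52.0 in progenitor-like cells. The Egfr promoter was at 17.1, 13.2, 13.7, 17.1 and 12.3 from base to tip, with a log2 ratio of -0.47 [-1.02, 0.05] where the RNA had 3.99.

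Over the 6 comparisons, counting also members with few UMIs, 2 promoter ratios passed 2-fold. Ereg was at 10.4 fragments per 1000000 at the base and 3.60 at the tip, a log2 ratio of -1.53 [-2.55, -0.64], in a comparison where 11.3% of promoters were past 2-fold lower and 2.4% higher. Egf was at 54.1 in tuft-like and 25.04 in enterocyte-like cells, a ratio of 1.11 [0.67, 1.53]. It rests on 51 fragments in tuft-like cells, summed over the 5 peaks of the long Egf start interval. In that comparison 20.4% of promoters were higher and 8.58% lower. No promoter of the 9 measured members was past 2-fold in progenitor-like cells, where 20.8% of promoters were higher and 5.23% lower. The same count of 0 held for goblet-like cells (13% higher and 3.94% lower), Paneth-like cells (17.5% and 6.18%) and enteroendocrine-like cells (22.7% and 7.11%). Nrg1 had 1 peak in the table used here over its span of 1084158 bp, at a gene start, with 7 fragments in enterocyte-like and 0 in enteroendocrine-like cells, so its chromatin could not be measured.

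**Figure D4:**
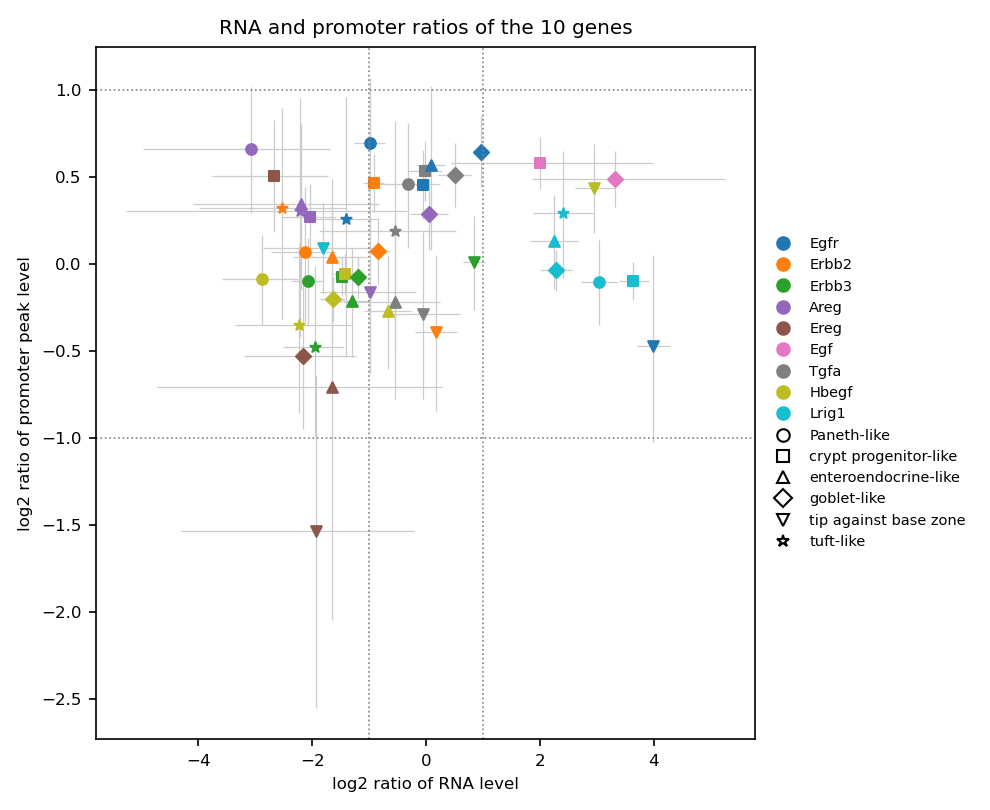
Log2 ratio of the promoter peaks (vertical axis) against log2 ratio of the RNA (horizontal axis) for members with at least 20 counts in both readouts, over the 5 class comparisons with enterocyte-like cells and the tip against the base zone, with exact 95% intervals as grey lines and 2-fold as dotted lines. The RNA ratios run from -3.08 to 3.99, while the promoter ratios stay between -1.53 and 0.70. Ereg in Paneth-like and tuft-like cells had no UMI and has no RNA ratio to draw.

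Peaks inside Lrig1 and Egfr moved more than their promoters. The spans of the 10 members, with 1000 bp added, held 98 of the 146191 peaks: 28 in Egfr, 25 in Lrig1, 10 in Tgfa, 8 each in Erbb2, Erbb3 and Egf, 5 in Ereg, 4 in Hbegf and 1 each in Nrg1 and Areg. Over all 10 members the share of peaks that were higher was near that of all peaks, given below, in enteroendocrine-like cells (19 of 86, or 22.1%) and at the tip (9 of 64, or 14.1%). In Lrig1, 21 of 25 peaks were past 2-fold above the enterocyte-like level in progenitor-like cells, none was lower, and 25.3% of all peaks were higher and 19.2% lower. The peak 18807 bp into the gene (chr6:94680888-94681789) stood at 30.6 in progenitor-like and 6.86 in enterocyte-like cells, a log2 ratio of 2.16 [1.91, 2.41]. The peak at 7564 bp (chr6:94692145-94693018) stood at 16.5 and 2.34, and within the crypt it was at 27.4 in stem-like and 12.1 in cycling-like cells. The share of Lrig1 peaks that were higher was 11 of 25 in goblet-like cells (19.9% of all peaks higher, 14.4% lower), 13 of 25 in Paneth-like (21.4% and 23.6%), 11 of 25 in enteroendocrine-like (23.9% and 26.6%) and 9 of 25 in tuft-like cells (21.8% and 30%). Lower Lrig1 peaks numbered 4 of 25 in tuft-like cells, and none was lower in goblet-like, Paneth-like or enteroendocrine-like cells.

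Several Egfr peaks differed along the villus. Of 15 Egfr peaks with at least 20 fragments in the end zones, 7 were past 2-fold higher at the tip and 1 was lower, where 11.3% of all peaks were higher and 19.8% lower. The peak 98959 bp into the gene (chr11:16850753-16851571) went from 1.88 through 2.35, 3.98 and 7.20 to 20.7 fragments per 1000000, a log2 ratio of 3.46 [2.59, 4.44]. The peak at 17870 bp (chr11:16769670-16770475) was flat from zone 1 (6.65) to zone 4 (5.85) and stood at 26.1 in zone 5. The peak at 43551 bp (chr11:16795301-16796206) went from 15.3 to 33.3. In cluster 7 against the other enterocyte-like cells, 12 of 21 Egfr peaks were higher, where 9.27% of all peaks were, and the promoter peak stood at 13.6 and 15.2.

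Egfr peaks also differed between the goblet-like clusters. Cluster 5 had 8 of 26 Egfr peaks past 2-fold higher than cluster 6 and 1 lower, where 8.64% of all peaks were higher and 11.3% lower. The peak at 98959 bp stood at 5.24 and 1.35, and that at 43551 bp at 18.6 and 8.70. Of the 7 peaks higher at the villus tip and the 8 higher in goblet-like cluster 5, 5 were the same peaks (71.4% of the first list and 62.5% of the second), at 39237, 43551, 45570, 78607 and 98959 bp. Over all peaks the same overlap was 3276, or 35.6% of the tip list and 32.5% of the goblet list. These comparisons share no cells. For Lrig1, 6 of 25 peaks were lower in cluster 5. The progenitor-like cells had 8 of 28 Egfr peaks higher and 6 lower than enterocyte-like cells, shares near the 25.3% and 19.2% of all peaks. Their Egfr RNA did not differ from that of enterocyte-like cells beyond counting error (log2 ratio -0.06). That ratio ran from -0.47 to 1.19 over the alternatives.

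Single peaks in the other members also separated the classes. In Hbegf, the peak 7661 bp from the start was higher in progenitor-like cells (18.6) than in enterocyte-like cells (3.15), although the RNA was lower there, and the peak at 12222 bp went from 1.16 at the base (8 fragments) to 5.996 at the tip (20 fragments). In Ereg, the peak at 15880 bp (chr5:91090050-91090953) stood at 2.41 in progenitor-like, 6.40 in goblet-like and 17.5 in enterocyte-like cells. In Tgfa, 5 of 10 peaks were higher in progenitor-like cells, against 25.3% of all peaks, and the RNA did not differ beyond counting error (log2 ratio -0.02 [-0.32, 0.27]). The Tgfa peak at 38952 bp (chr6:86233741-86234609) stood at 24.3 in Paneth-like, 13.2 in progenitor-like and 2.94 in enterocyte-like cells. None of the 8 Erbb3 peaks passed 2-fold in progenitor-like, goblet-like, Paneth-like or enteroendocrine-like cells, where its RNA was past 2-fold lower. In those comparisons 19.9% to 25.3% of all peaks were higher and 14.4% to 26.6% lower. In tuft-like cells, where Erbb3 RNA was also past 2-fold lower, 1 of the 8 peaks was higher and 1 lower, against 21.8% and 30% of all peaks.

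**Figure D5:**
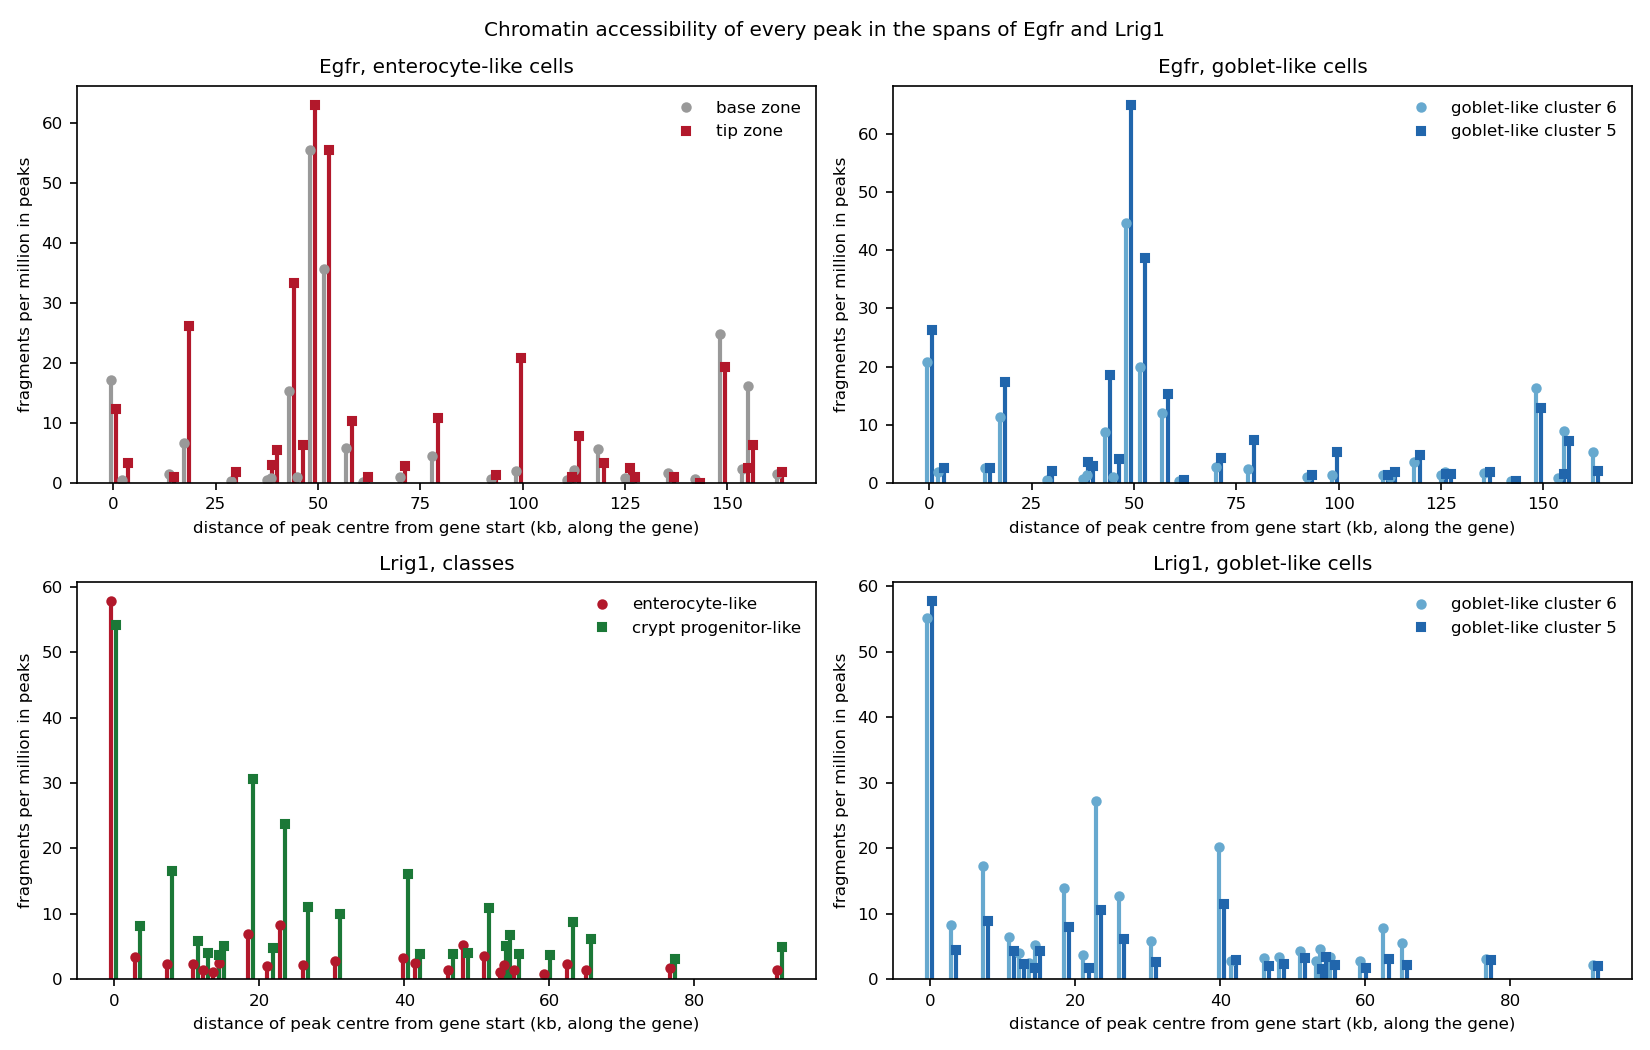
Fragments per 1000000 fragments in peaks at each peak of Egfr (tip and base zone) and of Lrig1 (progenitor-like and enterocyte-like cells), and of both in goblet-like clusters 5 and 6, by distance of the peak centre from the gene start in kb along the gene. At 98959 bp in Egfr the tip zone stands at 20.7 and the base zone at 1.88, and at 18807 bp in Lrig1 progenitor-like cells stand at 30.6 and enterocyte-like cells at 6.86.

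Other genes of the pathway were read from 73 listed genes besides the members, all of them found. Of those with at least 20 UMIs, 4 of 59 were past 2-fold higher and 10 lower at the villus tip, against 8.15% and 23.9% of all genes. Higher at the tip were Errfi1, which binds and blocks the active receptor (61.3 at the base and 271 at the tip, log2 ratio 2.14), and Dusp6, a phosphatase that switches off ERK (22.2 and 114, ratio 2.36). Phlda1 (1.79) and the immediate early gene Fos (1.13), both responsive to RAS-MAPK signalling, were the other 2, although on the scale of all UMIs Fos was within 2-fold (0.41) and 27 of the 59 genes were lower, where 53.1% of all genes were lower and 3.16% higher. The adaptor Gab1 (-1.78), the inhibitor Spred1 (-1.71) and the Lrig1 relative Lrig3 (-1.72) were lower at the tip. Of the 5 measured genes responsive to RAS-MAPK signalling 2 were higher, and of 15 measured feedback genes 2 were higher and 3 lower.

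In progenitor-like cells 15 of 68 measured pathway genes were higher and 8 lower than in enterocyte-like cells, against 34.5% and 15.2% of all genes. On the scale of all UMIs 50 were higher and 2 lower, against 66.5% and 6.71% of all genes. Of 9 RAS-MAPK responsive genes 6 were higher, among them Ccnd1, a cyclin of cell cycle entry (128 and 24.5, log2 ratio 2.39), and Egr1 (146 and 45.0, ratio 1.69), while the transcription factor gene Etv4 had 27 UMIs against 0, at least a log2 ratio of 2.71 at the limit of 3 counts. Dusp6 (-3.82) and Dusp5 (-2.83), 2 feedback phosphatases, were lower on both scales, and Socs5 (3.15) and Spred1 (2.03), both inhibitors, were higher. In goblet-like cells 15 of 66 were higher and 2 lower, against 20.9% and 11.4% of all genes, with the Egfr ligand gene Btc at 47.4 against 9.71 (ratio 2.29) and the inhibitor Spry1 at 19.3 against 4.41 (ratio 2.13).

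Enteroendocrine-like cells had 17 of 65 measured pathway genes higher and 7 lower, against 25.3% and 18.3% of all genes. The ligand gene Nrg4 is among the 7 with no UMI, at a depth whose limit of 3 counts lies only 0.82 below the enterocyte-like level on the log2 scale. The protease gene Bace1, whose product cleaves neuregulin 1, stood at 57.5 against 3.75 in enterocyte-like cells, a log2 ratio of 3.94 from 32 and 17 UMIs. Etv5, a MAPK-responsive transcription factor gene, stood at 68.3 against 1.54 (ratio 5.47), and the ERK phosphatase Dusp4 at 32.3 against 1.99 (ratio 4.02). Tuft-like cells had 11 of 63 higher and 14 lower, against 23.2% and 20.5%. Of those 14, Ier3 and Spry1 had no UMI at a depth that cannot show a difference, since their limits of 3 counts lie above the enterocyte-like level by 0.80 and 1.29 on the log2 scale. Higher in tuft-like cells were Cblb, a ubiquitin ligase that acts on active receptors, at 509 against 98.0 (ratio 2.38), and Bace1 at 43.0 (ratio 3.52). In Paneth-like cells 6 of 64 were higher and 12 lower, against 18.3% and 23%, and Egr1 stood at 273 (ratio 2.60). On the scale of all UMIs none of the 64 was past 2-fold lower in Paneth-like cells and 37 were higher, against 6.95% and 61.9% of all genes. In goblet-like, enteroendocrine-like and tuft-like cells 0, 1 and 5 were lower, against 3.11%, 6.2% and 10.3%, with genes that had no UMI counted as lower. There 48, 47 and 37 were higher, against 65%, 64.6% and 57%. The median log2 ratio of these 73 genes ran from -0.27 in Paneth-like to 0.37 in enteroendocrine-like cells across the 5 classes, while that of all genes tested ran from -0.13 to 0.47.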

How the data were processed

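Per the submitters' processing notes, the gene expression and ATAC libraries of 1 animal were processed with Cell Ranger ARC 2.0.2 on mm10. The deposited matrix holds raw counts: UMIs for 55401 genes (71697164 in all) and counts for 146191 peaks (197564789). As 87.6% of the peak values were even, they were read as cut sites, halved and rounded up to fragments. Cells with at least 500 UMIs, 300 genes and 1000 peak counts were kept (9872 of 12363) and clustered on RNA (scanpy 1.11.5, leidenalg 0.10.2, 1500 variable genes, 30 components, 15 neighbours, resolution 1), without the 10 members, 73 pathway genes and 37 mtDNA genes. A cluster took the name of the list with the highest median log2 ratio if this reached 0.3, a limit set after the clusters were seen. Scrublet marked 0 of the kept cells at a score threshold of 0.625, so no doublets were removed. A count of 0 does not show that the cells were free of doublets, and this was not tested. The 835 cells with the highest scores were left out in an alternative. Members and gene lists were chosen with earlier results of these data known.

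Counts were summed per class or zone and scaled to 1000000 nuclear-encoded UMIs or fragments in peaks. Intervals (95%, exact Poisson for levels, exact conditional binomial for ratios, exact binomial for shares; scipy 1.17.1) cover counting error only. There is 1 animal, so no p-value is given, and called means past 2-fold with at least 20 counts over both groups. Promoter peaks overlap the start interval of the gene in the deposited feature list, extended by 1000 bp, which for Egf takes in 5 peaks. Gene spans come from RefSeq (GRCm38.p6), with 1000 bp added. Its promoter table was searched for every member except Hbegf, which was not looked up, and 6 members had an entry. Named pathway genes are the called ones of each list, at most 4 with the largest absolute log2 ratio. The ratio and interval code was tested on simulated data. Alternatives covered scaling, clustering, cell filters, depth, thresholds, zone score, segment and promoter window.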

Additional observations from a re-analysis of the deposited data

How the results depend on the processing

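No paired analysis was possible because both libraries come from the same cells of 1 animal. The limits are those of 1 animal, shallow enterocyte-like cells and rare RNAs: Egf, Ereg and Nrg1 had too few UMIs outside their highest classes to order the rest. Over single members, 679 alternative values stayed within their counting interval, 142 moved beyond it without changing the sign of a called value, and 1 reversed (Egf in progenitor-like cells, 2.00 to -0.85 with cells thinned to 500 UMIs). The Nrg1 ratio in enteroendocrine-like cells stayed past 2-fold in all 10 alternatives. Members past 2-fold in RNA numbered 3 in place of 6 in enteroendocrine-like cells on the scale of all UMIs, where 64.6% of all genes were higher and 6.2% lower. At the tip they numbered 2 in place of 4 with thinned cells. The Egfr log2 ratio of tip to base, 3.99, stayed above 1 in all alternatives: 3.26 on the scale of all UMIs, 3.09 with clusters from ATAC peaks, 3.46 at Leiden resolution 0.5, 1.76 at resolution 2, 1.75 with the stricter cell filter, 1.73 with names at 0.4 (chosen after seeing the data), 3.69 with each cell scored alone, 3.30 with 3 zones, 3.17 in proximal and 4.52 in distal cells. Leaving cluster 7 outside the enterocyte-like class accounts by construction for the value with names at 0.4, and the cause of the other changes was not tested. Promoters of members past the limit numbered 1 in goblet-like, 2 in Paneth-like and 2 in enteroendocrine-like cells at 1.5-fold in place of 0, and 1 in enteroendocrine-like cells without cells above 80% mtDNA-encoded UMIs. In tuft-like cells they numbered 2 in place of 1 at 1.5-fold, without cells above 80% mtDNA-encoded UMIs and with a window of 2.5 kb. The share of all promoters past the limit is not given for these settings, nor that of all genes for the thinned cells. Whether these counts are more or fewer than that share therefore stays unknown.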

Other observations

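The 2598 unnamed cells also carried the family. Their levels were 147 for Egfr, 110 for Erbb2, 236 for Erbb3, 85.5 for Hbegf and 135 for Lrig1 per 1000000 nuclear-encoded UMIs, and 1 of their UMIs was Nrg1. They are no cell type, so these values describe a mixture. The 973 unnamed cells of cluster 3 were led by Gsdmc2, Gsdmc3, Cyp4f40 and Car4.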
